A study of Homo sapiens with 36 samples.

Results

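The effect of RANKL on the osteolytic prostate cancer (LPCa) line DU145 was examined by comparing mono-cultures that received RANKL with mono-cultures that did not. These were the 5 DU145 mono-culture libraries of the 36 in the series, and they were chosen by their sample labels: 3 without RANKL and 2 with it. The series covers 4 human prostate cancer lines, each grown alone, with MG63 osteosarcoma cells as osteoblast-like partners, with RANKL, and with RANKL and mouse RAW264.7 macrophages. Poly-A RNA was sequenced with a strand-specific kit, and the deposited table holds estimated counts per transcript. All DU145 cells were kept in αMEM with serum and harvested on day 5. The treated cultures received recombinant mouse soluble RANKL at 50 ng/mL, and the 3 controls received 0 ng/mL. A mouse ligand on 1 human line is the model here, and the labels do not say whether the replicates came from separate cultures, so the p-values may measure technical spread alone.

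RANKL is a cytokine of the TNF family that osteoblasts and osteocytes present to osteoclast precursors. It binds the receptor RANK, which recruits TRAF adaptors and activates the kinases that release NF-kB and switch on AP-1, and osteoprotegerin blocks it as a soluble decoy. In bone this signal drives osteoclast formation, and tumor cells of epithelial origin can carry the receptor as well.

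Levels are given as CPM, the counts of a gene scaled to equal library totals. The controls held between 29847346 and 34149876 counts and the treated libraries 12582994 and 13162742, so a level of 3 counts, taken as the limit of detection, was 0.0878 to 0.101 CPM in controls and 0.228 to 0.238 CPM with RANKL. These limits cover counting error only. A gene was tested with edgeR's quasi-likelihood test when any of the 5 libraries held 100 or more of its counts, and was called at a fold above 2 and a Benjamini-Hochberg adjusted p under 0.05. The root mean square difference in log2(CPM + 1) over the tested genes was 0.191 to 0.196 between controls, 0.233 between the treated libraries and 0.446 to 0.484 across the groups, so every cross-group pair was farther apart than every pair within a group.

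The libraries were checked against markers of the labelled line. All 5 epithelial markers were present in the 5 libraries, at a sum of 1214 CPM or more. KLK3, the prostate-specific antigen that DU145 is known to make little of, was at 5.81, 6.67 and 7.43 CPM without RANKL and at 5.31 and 7.13 CPM with it. Of 9 macrophage and osteoclast markers, DCSTAMP and OCSTAMP, which mark fusing osteoclasts, were at 0 counts in all 5 libraries, and the sum was 68.5 to 84.6 CPM in controls and 63.0 to 66.3 CPM with RANKL. Most of that sum was CD68, a lysosomal protein. For the 8 osteoblast markers the sum was 7.04 to 10.3 CPM against 4.99 to 5.91 CPM, and IBSP was at 0 counts in all 5 libraries.

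With RANKL, 210 of 11866 tested genes were called higher (1.77%) and 254 were called lower (2.14%). The largest rises among the named genes were in BCHE (butyrylcholinesterase), CD74 (the MHC class II invariant chain) and the collagenase MMP1. Named genes that fell by more than 4-fold included the guidance receptor gene ROBO1, those of the adhesion molecules MCAM and NRCAM, and the basement membrane chain gene COL4A5. Most changes were modest, since 26 of the higher genes and 44 of the lower ones passed 4-fold. Without the fold requirement 2075 genes were higher (17.5%) and 2057 lower (17.3%). The groups did not overlap in 462 of the 464 called genes and in 8191 of all 11866 tested (69%). A call at over 2-fold itself favours genes without overlap.

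Depth differed along with RANKL. Of the 254 genes called lower, 184 had under 100 counts in both treated libraries (72.4%), against 2164 of all tested genes (18.2%), and 16 of the 210 called higher had under 100 in all controls (7.62%), against 25 of all tested (0.211%). With the controls thinned to 12872900 counts, 195 genes were called higher and 141 lower, and 125 of the 464 called genes no longer had the counts to be tested. Scaled to library totals alone, 167 were called higher and 351 lower, which moved the share of higher calls from 45.3% to 32.2% as the median log2 fold change of all tested genes moved from -0.02 to -0.12. The labels give no date or batch, and RANKL, depth and anything else that differed between these culture sets cannot be told apart within the 5 libraries.

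**Figure D1:**
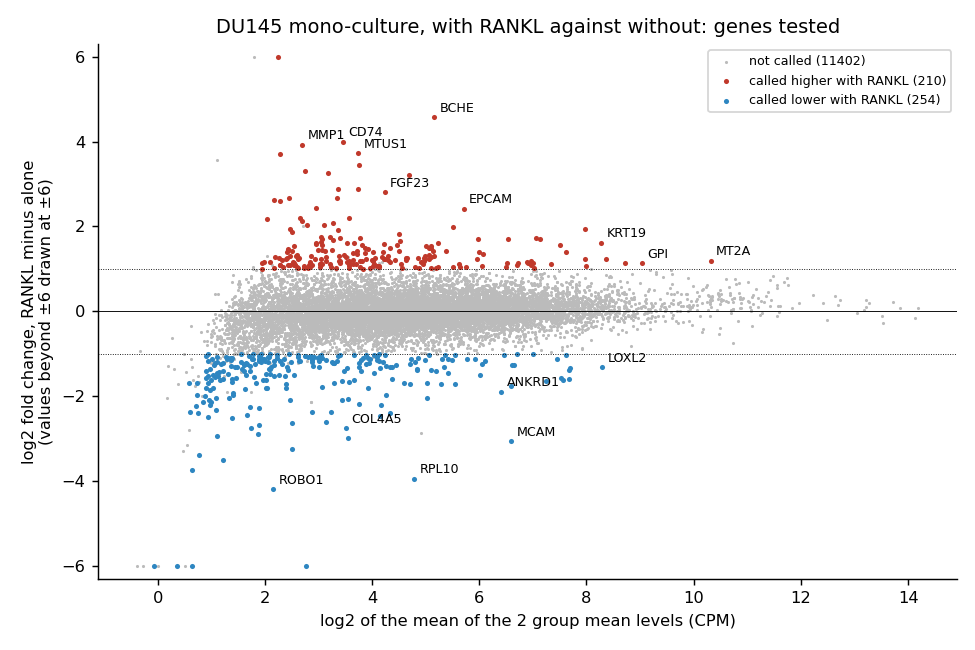
Each point is a tested gene, with the log2 of the mean of its group mean levels in CPM on the x axis and the log2 fold change with RANKL on the y axis. The 210 genes called higher are red and the 254 called lower are blue. BCHE and CD74 stand at the top at 4.57 and 4.0, and ROBO1 and RPL10 near the bottom at -4.19 and -3.95.

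The strongest rise was in BCHE (chr3:165772904-165837472, GRCh38), which encodes butyrylcholinesterase, a secreted enzyme that splits choline esters. It was at 2.97, 3.02 and 3.24 CPM in the controls and at 74.0 and 62.2 CPM with RANKL. Both treated libraries were far above all controls, with a log2 fold change of 4.57 ± 0.16 (SE; edgeR adjusted p = 2.21e-16). CD74 (chr5:150401637-150412929), the invariant chain that guides MHC class II assembly, was at 1.81, 1.06 and 1.18 CPM without RANKL and at 19.0 and 22.0 CPM with it. The groups were well separated, with a log2 fold change of 4.0 ± 0.40 (edgeR adjusted p = 2.85e-08). MMP1 (chr11:102789920-102798160), the interstitial collagenase, was at 1.01, 0.628 and 0.874 CPM in controls and at 13.1 and 11 CPM with RANKL. Its controls lay close to 1 CPM, and the log2 fold change was 3.92 ± 0.34 (edgeR adjusted p = 6.98e-08).

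Other genes that rose included MTUS1, which encodes microtubule-associated proteins. It was at 2.29, 2.6 and 1.09 CPM in controls and at 24.9 and 24.7 CPM with RANKL. The groups did not overlap (log2 fold change 3.73 ± 0.15, edgeR adjusted p = 2.06e-15). SCEL, the cornified envelope protein sciellin, was at 2.27, 2.66 and 2.25 CPM in controls and at 25.0 and 24.3 CPM with RANKL, a clear separation with a log2 fold change of 3.46 ± 0.27 (edgeR adjusted p = 3.89e-09). GKN2, a gastrokine otherwise found in stomach lining, had a log2 fold change of 3.30 ± 0.43 (edgeR adjusted p = 0.000135), but its adjusted p with DESeq2 was 0.783. SPOCD1, known from transposon silencing in germ cells, rose by 3.26 ± 0.24 on the log2 scale, and the uncharacterized membrane protein gene TMEM156 by 2.89 ± 0.25. HMGB1P5, a transcribed pseudogene that shares sequence with HMGB1, had a log2 fold change of 3.22 ± 0.58, and its reads cannot be placed with certainty.

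BCL2A1 (chr15:79960889-79971446), an inhibitor of apoptosis and a target of NF-kB, was at 0.532, 0.752 and 0.961 CPM in controls and at 9.19 and 8.82 CPM with RANKL. The controls were all below 1 CPM and the log2 fold change was 3.70 ± 0.35 (edgeR adjusted p = 1.12e-05). It was also at 5.83 and 8.35 CPM in the MG63 co-cultures of DU145, which received no RANKL, so a high level of BCL2A1 did not go with RANKL alone.

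Among genes that fell, ROBO1 (chr3:78597240-79767815), a receptor for SLIT guidance proteins, was at 8.13, 8.28 and 9.06 CPM in controls. With RANKL it was at 0.408 and 0.513 CPM, only little above the detection limit. The groups were far apart, with a log2 fold change of -4.19 ± 0.26 (edgeR adjusted p = 7.60e-12). MCAM (chr11:119308529-119321521), the adhesion molecule CD146, was the most abundant of the strong fallers, at 173, 180 and 170 CPM in controls and 18.4 and 20.6 CPM with RANKL. Its log2 fold change was -3.06 ± 0.20 (edgeR adjusted p = 1.67e-11). COL4A5 (chrX:108439844-108697545), a type IV collagen chain of basement membranes, was at 19.5, 20.7 and 19.6 CPM in controls and at 1.88 and 3.68 CPM with RANKL. It too did not overlap between groups, with a log2 fold change of -2.75 ± 0.19 (edgeR adjusted p = 3.92e-11).

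Myoglobin (MB), the oxygen-binding protein of muscle that some carcinomas also express, fell from 19.2, 17.6 and 25.8 CPM to 3.23 and 1.70 CPM (log2 fold change -2.99 ± 0.21, edgeR adjusted p = 5.30e-11). Smaller in level were the adhesion molecule NRCAM at -2.93 ± 0.45, the RNA-degrading factor ZC3H12D at -2.89 ± 0.46 and FOXL2NB at -3.25 ± 0.31. All were called and none overlapped between groups. ANKRD1, a nuclear protein and widely used readout of YAP activity, was at 148, 132 and 129 CPM in controls and at 32.5 and 35.9 CPM with RANKL, a fall by 1.89 ± 0.15 on the log2 scale (edgeR adjusted p = 5.16e-10).

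Calls in genes with close copies are uncertain, because the counting could split their reads. The pseudogene GCSHP5 was at 11.8, 12.8 and 16.0 CPM in controls and at 0 counts in both treated libraries, which makes it at least 58.1-fold lower at 3 counts per library (edgeR adjusted p = 0.0279). The call was lost when either treated library was left out or low counts were not filtered. It was under 3 counts in 1 MG63 co-culture and at 30.9 CPM in the other. The ribosomal protein gene RPL10 was at 71.5, 29.8 and 54.8 CPM in controls and at 2.34 and 3.99 CPM with RANKL (log2 fold change -3.95 ± 0.53, edgeR adjusted p = 2.95e-06). A single transcript, ENST00000436473, held 89.9% of RPL10 counts in controls and was at 0 with RANKL, and RPL10 was at 3.45 CPM in both MG63 co-cultures.

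**Figure D2:**
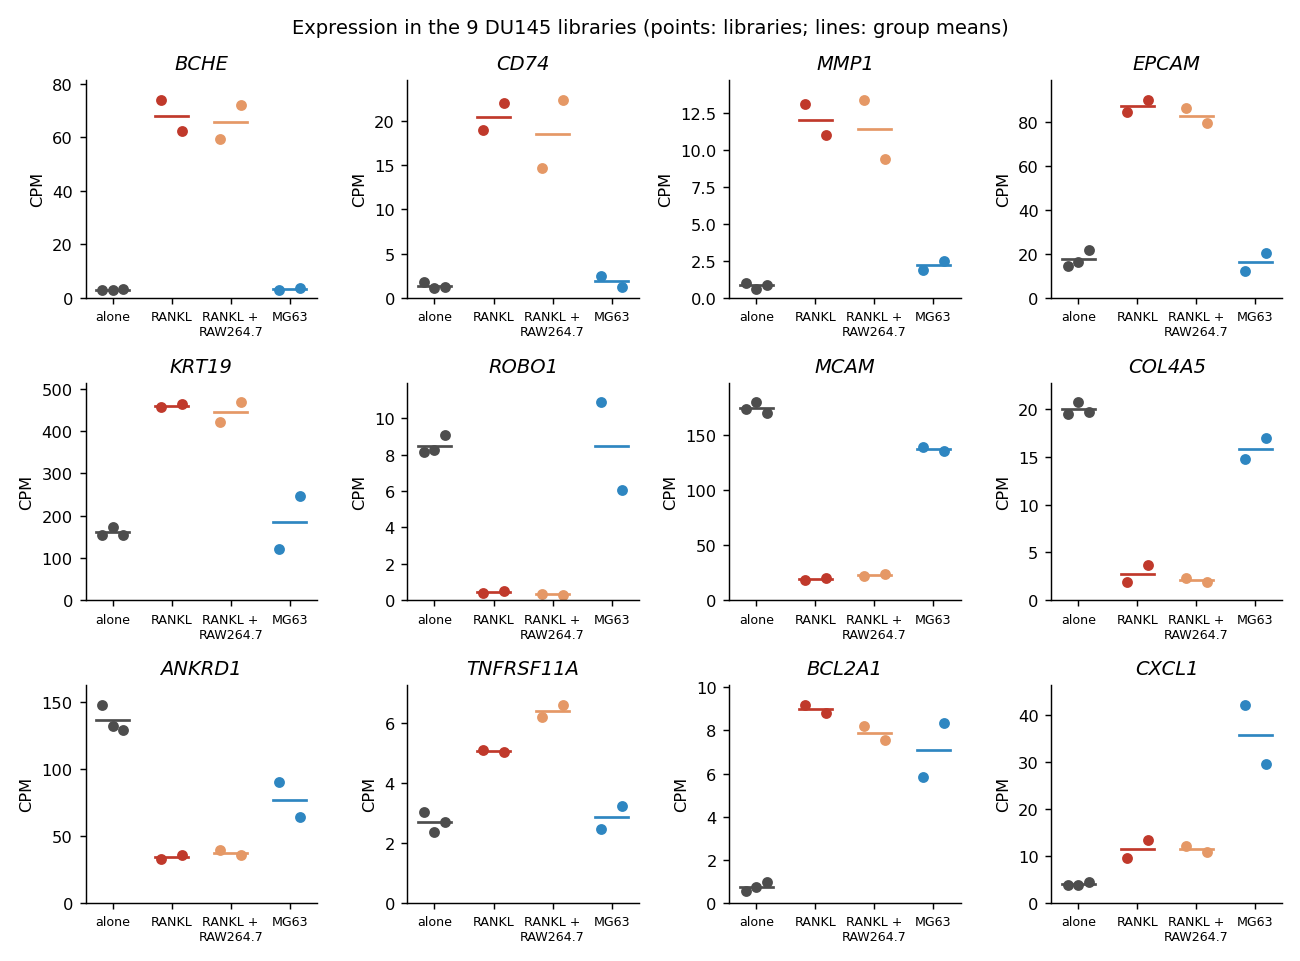
Each panel gives 1 gene in the 9 DU145 libraries, with CPM on the y axis and the culture on the x axis, points for libraries and lines for group means. For BCHE, CD74, MMP1, EPCAM, KRT19, ROBO1, MCAM, COL4A5 and TNFRSF11A the cultures with RANKL, alone or beside RAW264.7 cells, lie apart from those without it, whereas BCL2A1 was also high and CXCL1 highest with MG63 cells.

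RANK itself rose. TNFRSF11A (chr18:62325287-62391292), which encodes the receptor, was at 3.02, 2.35 and 2.68 CPM in controls and at 5.10 and 5.03 CPM with RANKL. The groups did not overlap, and the log2 fold change was 1.01 ± 0.24 (edgeR adjusted p = 0.00216). It was tested only because 1 control reached 103 counts, and the log2 fold change ran from 0.91 to 1.03 over the alternatives, so the fold stood at the 2-fold line. TNFSF11, the gene of RANKL, was at most 0.227 CPM in controls and at 0 counts with RANKL, and TNFRSF11B, which encodes osteoprotegerin, was between 0.437 and 0.738 CPM in controls and at 0.636 and 0.0588 CPM with RANKL. Neither reached the count needed for a test.

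Of 19 RANK signalling genes in the table, 16 were tested. Among these 1 was called higher and 0 lower, against 1.77% and 2.14% of all tested genes. At the adjusted p alone 2 rose and 5 fell, against 17.5% and 17.3%. The median log2 fold change was -0.24, against -0.02 over all tested genes. TRAF3, an adaptor that restrains alternative NF-kB signalling, rose by 0.37 ± 0.09 on the log2 scale. The kinase gene IKBKB, which encodes the subunit that marks IkB for destruction, was at 38.2, 38.5 and 42.5 CPM in controls and at 23.6 and 28 CPM with RANKL (log2 fold change -0.52 ± 0.11, edgeR adjusted p = 0.000645). MAP3K7, the kinase TAK1, fell by 0.28, the adaptor GAB2 by 0.53, the deubiquitinase CYLD by 0.42 and TRAF1 by 0.57 on the log2 scale. TRAF1 lost significance in 8 of its 13 alternatives, and CYLD lost it without treated replicate 1 or without control replicate 2 or 3. TRAF6, the main adaptor of RANK, was at 6.61 to 6.96 CPM in controls and at 5.65 and 5.75 CPM with RANKL, which was not significant (log2 fold change -0.16 ± 0.17, edgeR adjusted p = 0.481). TRAF2, TRAF5, TAB1, TAB2, CHUK, IKBKG, SRC and SQSTM1 did not pass either, though TRAF2 (-0.34 ± 0.14, edgeR adjusted p = 0.0536) did in 5 of 14 alternatives and TAB1 and SQSTM1 in 2 each, and NFATC1, the master factor of osteoclasts, was at 1.77 to 2.17 CPM in controls and 2.67 and 3.06 CPM with RANKL, too low for a test.

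NF-kB genes did not move in 1 direction. Of 13 tested NF-kB subunits and inhibitors, 1 was called higher and 0 lower, against 1.77% and 2.14% of all tested genes. By the adjusted p alone 4 rose and 1 fell, against 17.5% and 17.3%, with a median of 0.11. TNFAIP3, the feedback inhibitor A20, was at 9.19, 11.3 and 7.60 CPM in controls and at 22.7 and 23.0 CPM with RANKL (log2 fold change 1.39 ± 0.24, edgeR adjusted p = 7.86e-05). NFKBIA, the inhibitor IkB alpha, instead fell, from a mean of 340 to 200.4 CPM (log2 fold change -0.66 ± 0.09). Of 21 tested NF-kB target genes, 3 were called higher and 3 lower, against 1.77% and 2.14% of all tested genes. A further count at the adjusted p gave 5 that rose and 8 that fell, against 17.5% and 17.3% (median -0.23). The 3 called lower passed the count filter through the deeper controls alone. They held up to 138 counts there and at most 13.3 with RANKL, so the number called lower depends on that depth. The neutrophil chemokine CXCL1 was at 3.80, 3.71 and 4.50 CPM in controls and at 9.58 and 13.4 CPM with RANKL (log2 fold change 1.62 ± 0.28, edgeR adjusted p = 0.000426). The other called risers, both chosen after their values were seen, were the chemokine CXCL8 (1.18 ± 0.14) and the urokinase gene PLAU (1.15 ± 0.16), which went from a mean of 276 to 570.3 CPM.

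On the lower side, the T-cell chemokine CCL5 was at 3.44, 2.43 and 2.76 CPM in controls and at 0.113 and 0.355 CPM with RANKL, around the detection limit (log2 fold change -3.75 ± 0.50, edgeR adjusted p = 2.44e-06). The acute-phase gene SAA1 went from 3.97, 4.63 and 4.33 CPM to 0.231 and 0.484 CPM (log2 fold change -3.50 ± 0.53), and CCL20 fell by 1.53 ± 0.54 on the log2 scale, a call that was lost when either treated library was left out. Several of these genes were high with MG63 cells and no RANKL: CXCL1 was at 42.26 and 29.5 CPM there, CXCL8 at 133 and 175 CPM, SAA1 at 28.1 and 46.6 CPM and TNFAIP3 at 21.6 and 16.4 CPM.

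The promoters of these genes were read for the binding letters of NF-kB and AP-1, the factors that RANK acts through. In the 250 bases before the start, from RefSeq on GRCh38.p14, the NF-kB letters on either strand (GGG, any 2 bases, then TTTCC) were present in 7 of 160 genes called higher that had a promoter in the table (4.38%), 3 of 146 called lower (2.05%) and 190 of 9361 tested (2.03%), against 1.73% of all 27305 promoters. The letters searched for AP-1, TGANTCA, read alike on both strands. They allow any middle base and so are looser than the AP-1 site, which has G or C there. These letters were present in 9 genes called higher (5.62%), 10 called lower (6.85%) and 339 tested (3.62%), against 6.60% of all promoters. These matches are a description and not evidence of binding. Among named genes called lower, CCL20 had an NF-kB match and ANKRD1 a match to the letters searched for AP-1. The promoters of 3 genes are shown, with the matches in capitals: BCHE as the gene with the largest rise, and TNFAIP3 and CXCL1 as the NF-kB genes named by the rule and called higher, both with a match. They lie on the minus strand at chr3:165837424-165837673 and on the plus strand at chr6:137867009-137867258 and chr4:73869143-73869392.
BCHE: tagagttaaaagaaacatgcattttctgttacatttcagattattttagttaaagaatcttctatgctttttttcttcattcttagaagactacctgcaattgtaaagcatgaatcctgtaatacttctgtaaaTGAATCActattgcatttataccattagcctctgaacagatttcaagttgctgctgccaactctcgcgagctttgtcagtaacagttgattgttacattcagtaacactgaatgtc
TNFAIP3: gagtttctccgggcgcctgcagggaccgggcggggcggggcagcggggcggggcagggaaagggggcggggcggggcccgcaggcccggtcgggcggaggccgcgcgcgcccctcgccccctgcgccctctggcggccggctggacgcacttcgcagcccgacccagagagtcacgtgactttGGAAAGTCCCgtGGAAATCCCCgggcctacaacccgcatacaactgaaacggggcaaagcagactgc
CXCL1: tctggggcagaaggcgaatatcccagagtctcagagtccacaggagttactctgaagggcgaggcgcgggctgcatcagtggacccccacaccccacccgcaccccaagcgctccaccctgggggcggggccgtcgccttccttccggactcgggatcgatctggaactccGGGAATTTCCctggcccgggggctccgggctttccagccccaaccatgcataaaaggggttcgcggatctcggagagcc
The match in BCHE, TGAATCA, has A as its middle base and began 116 bases before the start. The adjacent NF-kB matches of TNFAIP3 began 67 and 55 bases before, and that of CXCL1 79 bases before.

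AP-1 and immediate early genes had 2 of 16 tested called higher and 0 lower, against 1.77% and 2.14% of all tested genes. Without the fold requirement 7 rose and 3 fell, against 17.5% and 17.3%, with a median of 0.15. FOSL1, the Fos-family subunit FRA1, was at 110, 109 and 103 CPM in controls and at 205 and 227 CPM with RANKL. The groups did not overlap (log2 fold change 1.11 ± 0.12, edgeR adjusted p = 1.03e-07). DUSP6, a phosphatase of ERK, was at 9.45, 6.96 and 11.4 CPM in controls and at 17.4 and 18.4 CPM with RANKL (log2 fold change 1.05 ± 0.20, edgeR adjusted p = 0.000218), and its log2 fold change was 0.88 without control replicate 2. EGR1 rose by 0.89 ± 0.13 and JUN by 0.57 ± 0.07 on the log2 scale, both under 2-fold.

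Of 19 tested EMT and migration genes, 7 were called higher and 1 lower, against 1.77% and 2.14% of all tested genes. At the adjusted p 14 rose and 1 fell, against 17.5% and 17.3%, with a median log2 fold change of 0.52. EPCAM (chr2:47345158-47387601), an epithelial surface adhesion protein, was at 14.5, 16.4 and 21.6 CPM in controls and at 84.5 and 89.9 CPM with RANKL. The treated libraries were near each other and far above the controls (log2 fold change 2.42 ± 0.12, edgeR adjusted p = 2.24e-13). E-cadherin (CDH1) was at 10.0, 13.6 and 12.3 CPM in controls and at 24.7 and 21.7 CPM with RANKL (log2 fold change 1.06 ± 0.11, edgeR adjusted p = 2.90e-08). Its log2 fold change was 0.95 without control replicate 1 and 0.95 without treated replicate 1, under the 2-fold line. The tight junction gene CLDN4, named after its values were seen, went from 7.84 to 8.01 CPM up to 16.7 and 15.2 CPM.

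MMP14, a membrane-bound activator of other proteases, was at 37.8 to 40.1 CPM in controls and 85.7 and 85.1 CPM with RANKL (log2 fold change 1.23 ± 0.15). Fibronectin (FN1) rose by 1.07 ± 0.12 and vimentin (VIM), at a mean of 1260 CPM in controls, by 0.40 ± 0.11 on the log2 scale, while the mesenchymal regulators SNAI1 (0.41 ± 0.22) and ZEB1 (-0.31 ± 0.18), given after their values were seen, did not pass. TIMP2, an inhibitor of matrix proteases and the 1 gene of this list called lower, also named after its values were seen, went from 260 to 274 CPM down to 123 and 125 CPM (log2 fold change -1.02 ± 0.08).

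All 5 epithelial markers used to check the line rose at the adjusted p, and 3 were called. Their sum was 1214 to 1237 CPM in controls and 2243 to 2244 CPM with RANKL. KRT19, a keratin of simple epithelia, was at 154, 173 and 155 CPM in controls and 457 and 464 CPM with RANKL (log2 fold change 1.62 ± 0.17, edgeR adjusted p = 9.15e-08). KRT18 and KRT8, which pair in the same filaments, rose by 0.98 ± 0.11 and 0.65 ± 0.12 on the log2 scale, both short of 2-fold.

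Matrix genes moved in both directions. Of 17 tested collagens and matrix genes, 3 were called higher and 1 lower, against 1.77% and 2.14% of all tested genes. Those called higher included FN1 and the glycoprotein tenascin C (TNC, 1.12 ± 0.14). By the adjusted p alone 8 rose and 4 fell, against 17.5% and 17.3%, with a median of 0.24. The gene called lower was LOXL2, which crosslinks collagen. It was at 441, 445 and 480.3 CPM in controls and at 177 and 166 CPM with RANKL (log2 fold change -1.31 ± 0.08, edgeR adjusted p = 2.12e-11). The basement membrane chains COL4A1 and COL4A2 fell by 0.81 ± 0.22 and 0.75 ± 0.14 on the log2 scale. COL4A5, described above, was not on this list and is not in its counts.

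Of 10 tested bone-directed secreted factors, 1 was called higher and 1 lower, against 1.77% and 2.14% of all tested genes. IL11, a cytokine that promotes osteoclast formation, was the higher one and NOG, the BMP antagonist noggin, the lower. In this list 3 rose and 3 fell at the adjusted p, against 17.5% and 17.3%, with a median of 0.02. IL11 was at 14.1, 12.7 and 12 CPM in controls and at 23.5 and 31.1 CPM with RANKL (log2 fold change 1.17 ± 0.21, edgeR adjusted p = 0.000131), and its log2 fold change was 0.97 without treated replicate 2. NOG was at 9.84, 9.42 and 8.60 CPM in controls and at 4.50 and 3.88 CPM with RANKL (log2 fold change -1.05 ± 0.28, edgeR adjusted p = 0.00480), a call lost without treated replicate 2. CSF1, which osteoclast precursors need, fell from a mean of 154 to 92.0 CPM, and the WNT inhibitor DKK1 rose from 76.1 to 98.4 CPM, both under 2-fold. Of 6 tested osteoclast genes 0 were called, against 1.77% higher and 2.14% lower of all tested genes. Those that fell at the adjusted p were CTSK, CA2 and CLCN7, 3 of 6 against 17.3%, and the list median was -0.51. TCIRG1, a proton pump subunit and the most abundant of them, was not significant (-0.37 ± 0.15, edgeR adjusted p = 0.0598).

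Of 19 tested interferon-stimulated genes, 1 was called higher and 2 lower. At the adjusted p 2 rose and 9 fell, against 17.5% and 17.3% of all tested genes, with a median of -0.40. OASL, a protein of the antiviral response, was at 50.8, 45.7 and 54.8 CPM in controls and at 20.3 and 15.8 CPM with RANKL (log2 fold change -1.38 ± 0.19, edgeR adjusted p = 4.12e-06). It was at 16.5 and 20.2 CPM with MG63 cells as well, where no RANKL was given. OAS3, of the same family, moved the other way, from 12.1, 11.2 and 11.4 CPM to 26.1 and 25.1 CPM (1.24 ± 0.13), and was at 12.8 and 10.7 CPM with MG63 cells. IFITM1 was at 8.73, 5.03 and 2.90 CPM in controls and at 2.15 CPM and 0 counts with RANKL (-2.26 ± 0.71), and it lost its call without treated replicate 2, at a log2 fold change of -1.28, and without control replicate 1, at -1.76.

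Of 29 tested cholesterol and fatty acid synthesis genes, 2 were called higher and 0 lower, against 1.77% and 2.14% of all tested genes. At the adjusted p 20 rose and 1 fell, against 17.5% and 17.3%, with a median of 0.33. CYP51A1, a demethylase of sterol synthesis, was at 88.0, 90.1 and 91.6 CPM in controls and at 178 and 163 CPM with RANKL (log2 fold change 1.02 ± 0.06, edgeR adjusted p = 3.17e-12), and INSIG1, a sterol-sensing inhibitor of the pathway, had a log2 fold change of 1.08 ± 0.13. SREBF1 was the 1 gene that fell (-0.66 ± 0.10). With library totals alone, 0 of these genes reached a 2-fold change.

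Of the 26 tested ATF4 and unfolded protein genes, 2 were called higher and 0 lower, against 1.77% and 2.14% of all tested genes. Without the fold requirement 10 rose and 1 fell, against 17.5% and 17.3%, with a median of 0.25. PHGDH, the first enzyme of serine synthesis, was at 31.4, 29.9 and 32.4 CPM in controls and at 95.6 and 94.8 CPM with RANKL (log2 fold change 1.71 ± 0.08, edgeR adjusted p = 5.14e-14). ASNS, asparagine synthetase, was at 23.1, 25.2 and 23.5 CPM in controls and at 55.9 and 63.4 CPM with RANKL (1.42 ± 0.08). Both separated the groups fully, and ATF4 itself rose by 0.65 ± 0.06. The later serine synthesis genes of the list, given after their values were seen, had log2 fold changes of 0.55 ± 0.07 (PSAT1) and 0.20 ± 0.09 (PSPH, edgeR adjusted p = 0.0757).

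In the glycolysis and hypoxia list 3 of 28 tested genes were called higher and 0 lower, against 1.77% and 2.14% of all tested genes. By the adjusted p alone 12 rose and 2 fell, against 17.5% and 17.3%, with a median of 0.28. HK2, a hexokinase, rose from 4.87 to 5.10 CPM up to 11.7 and 13.3 CPM (1.42 ± 0.11), GPI from 335 to 351 CPM up to 705 and 704 CPM (1.14 ± 0.07) and PGK1 from 59.8 to 74.1 CPM up to 148 and 135 CPM (1.14 ± 0.21). All 3 are enzymes of glycolysis. Hypoxia genes of the list, given after their values were seen, went both ways: PFKFB4 rose by 0.84 ± 0.20, BNIP3 by 0.78 ± 0.18 and PDK1 by 0.69 ± 0.14 on the log2 scale, NDRG1 fell by 0.90 ± 0.14, and the vascular growth factor gene VEGFA did not pass (0.04 ± 0.10).

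Of 20 tested NRF2 targets and metallothioneins, 1 was called higher and 2 lower, against 1.77% and 2.14% of all tested genes. Here 5 rose and 6 fell at the adjusted p, against 17.5% and 17.3%, with a median of -0.00. The metal-binding protein gene MT2A was at 818, 842 and 778 CPM in controls and at 1656 and 1821 CPM with RANKL (1.2 ± 0.10), but it was at 1481 and 2113 CPM with MG63 cells too. AKR1C3, an aldo-keto reductase that makes testosterone, was at 30.6, 26.6 and 37.4 CPM in controls and at 10.5 and 9.06 CPM with RANKL (-1.58 ± 0.29, edgeR adjusted p = 0.00012). Its relative AKR1C1, which shares sequence with it, had a log2 fold change of -1.17 ± 0.38 and lost its call without treated replicate 2.

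No cell cycle gene was called among 34 tested, at 0 higher and 0 lower, against 1.77% and 2.14% of all tested genes. Still, 13 rose and 2 fell at the adjusted p, against 17.5% and 17.3% (median 0.19). CCNB1 went from a mean of 317 to 336 CPM. None of the 13 respiratory chain genes on mitochondrial DNA passed the adjusted p (median 0.09, with MT-CO2 at 0.08 ± 0.19 and MT-CO3 at -0.15 ± 0.38), though MT-CO3 did in 2 of 14 alternatives. Of 80 tested cytosolic ribosomal protein genes only RPL10 was called, as lower, against 2.14% of all tested genes. The list had 34 that rose and 1 that fell at the adjusted p, against 17.5% and 17.3% (median 0.27). Ribosomal protein genes held 10.6% to 10.8% of the counts in controls and 12.1% to 12.3% with RANKL. Replication-dependent histone genes, whose transcripts mostly lack a poly-A tail, had 4 of 21 tested called lower and 0 higher, against 2.14% and 1.77% of all tested genes (0 rose and 10 fell at the adjusted p, against 17.5% and 17.3%, median -0.59). Their summed level was 749 to 805 CPM in controls and 506 to 537 CPM with RANKL. In the other 3 lines the sum was higher with RANKL. It was 865 to 895 CPM without and 1365 and 1415 CPM with it in C4-2. The same levels were 1007 to 1049 CPM and 1668 and 1712 CPM in C4-2B, and 68.4 to 72.5 CPM and 105 and 111 CPM in 22Rv1. H3C10, H2BC21, H2AC13 and the pseudogene H2BC19P were the ones called, at -1.11, -1.07, -1.05 and -1.17, and H2BC19P lost its call without any 1 of 4 libraries. With MG63 cells H2BC21 was at 14.8 and 8.27 CPM, also under the 22.8 to 24.2 CPM of the controls. The part of RNA capture in these lists was not tested.

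**Figure D3:**
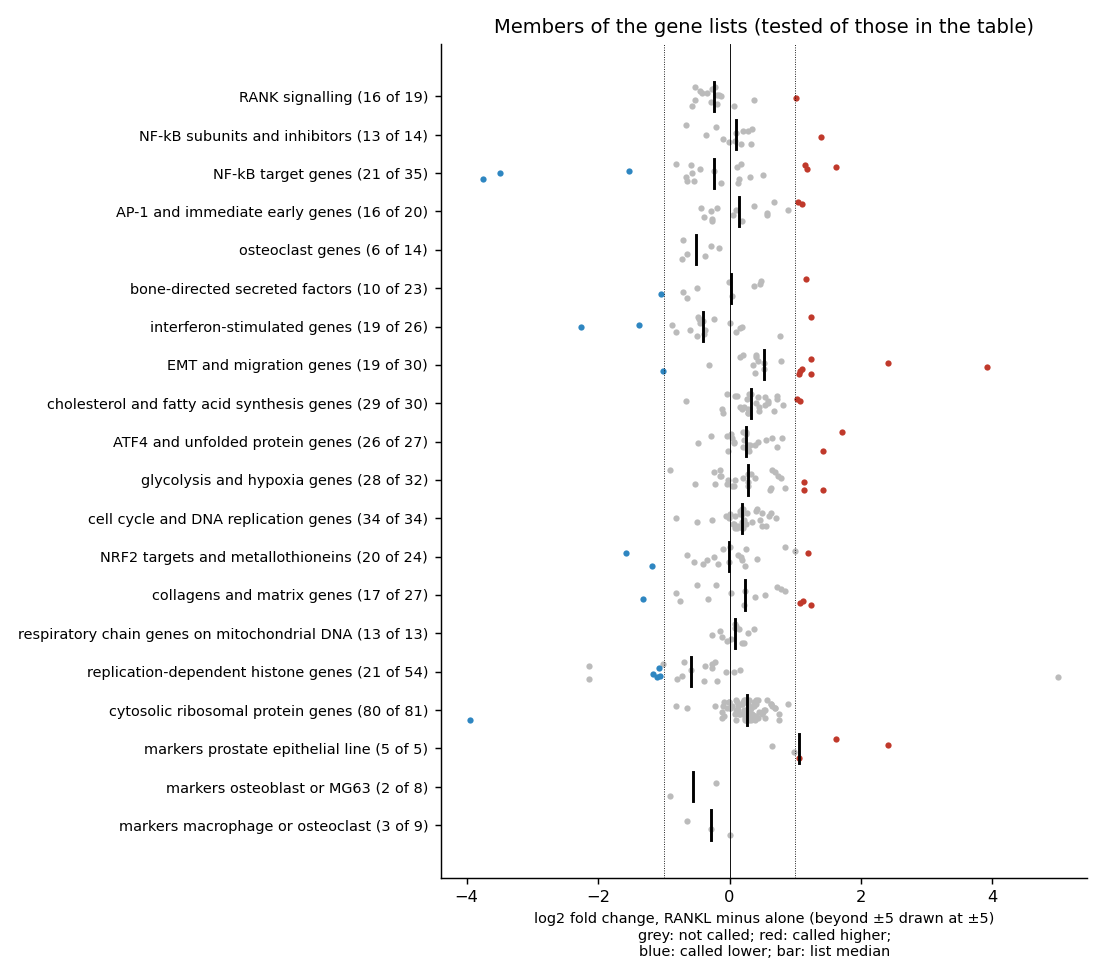
The x axis is the log2 fold change with RANKL and each row is a gene list or marker list described in the text, with 1 point per tested member and a bar at the median. Called members are red where higher and blue where lower, the dotted lines mark 2-fold, and the epithelial marker list has the highest median at 1.06.

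The 4 remaining DU145 libraries lay outside both groups compared and entered the fit only through the shared estimate of the spread. Of these, the RAW264.7 co-cultures received RANKL and the MG63 co-cultures did not, and all had between 10418452 and 14462543 counts. Between them 2.33% of tested genes were called higher with RANKL and 3.17% lower. Among the 210 genes called higher in mono-culture, 112 (53.3%) were called higher there and 6 lower, and among the 254 called lower, 105 (41.3%) were called lower and 1 higher. The direction was the same for 189 and 221 of them. That share was not counted over all tested genes, where the 2 log2 fold changes were also correlated (Spearman rho 0.44). The median log2 difference was 1.06 for the first set, against 1.25 in mono-culture, and -0.87 for the second, against -1.32. Replicate 2 with MG63 cells stood apart, with 3.24% of its counts from mitochondrial DNA against 13.6% to 15.0% in all other DU145 libraries, and without it 111 and 86 genes were called the same way, of 229 and 149 called in all, with medians of 1.08 and -0.73. In these libraries RANKL and the partner cell cannot be told apart.

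Single genes varied in how far they differed there. BCHE was at 59.4 and 72.1 CPM with RAW264.7 cells and RANKL and at 3.07 and 3.63 CPM with MG63 cells. EPCAM was at 86.1 and 79.4 CPM against 12 and 20.5 CPM, and MCAM at 22.4 and 23.7 CPM against 139 and 135 CPM. RANK was at 6.2 and 6.61 CPM against 2.45 and 3.24 CPM (log2 difference 1.17, edgeR adjusted p = 0.00238). MMP1 differed by 2.40 on the log2 scale, against 3.92 in mono-culture, and CCL5 by -1.60, against -3.75. The difference was opposite for CXCL1 at -1.66, and BCL2A1 (0.15), MT2A (-0.06) and OASL (-0.16) did not pass. In overall distance the RAW264.7 co-cultures lay 0.230 to 0.253 from the RANKL mono-cultures, against 0.233 between the latter, and 0.423 to 0.487 from the controls. Of the 464 called genes, 422 and 413 were nearer to the mono-culture level with RANKL in the 2 RAW264.7 co-cultures, and 108 and 118 in the MG63 co-cultures. The levels came from the libraries that made the calls, and the share over all tested genes was not counted. These counts are therefore a description only.

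**Figure D4:**
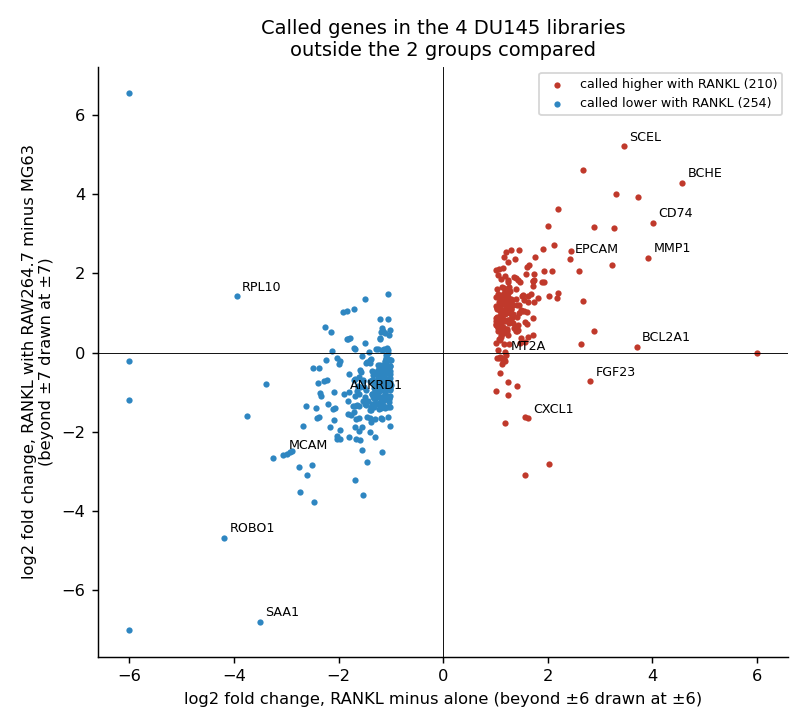
Each point is 1 of the 464 called genes, with the log2 fold change of RANKL in mono-culture on the x axis and the log2 difference between the RAW264.7 co-cultures with RANKL and the MG63 co-cultures without it on the y axis. Most points share a sign, 189 of 210 on the right and 221 of 254 on the left. The share over all tested genes was not counted. CXCL1, FGF23 and RPL10 lie in the opposite quadrants.

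To ask which changes were particular to DU145, its log2 fold change was tested against the mean of those in 22Rv1, C4-2 and C4-2B, each with 2 libraries with RANKL and 3 without. The difference was called larger in DU145 for 182 genes (1.53%) and smaller for 250 (2.11%). Of the 210 genes called higher in DU145, 112 also had a larger effect there by this test, and of the 254 called lower, 140 had a smaller one. For the other 98 and 114 a difference between lines was not shown. EPCAM had a difference of 2.53 ± 0.14 (edgeR adjusted p = 1.51e-12), PHGDH of 2.05 ± 0.09, ROBO1 of -4.28 ± 0.28 and COL4A5 of -3.00 ± 0.20. EPCAM was between 89.9 and 103 CPM in the untreated mono-cultures of the other lines and between 76.4 and 94.0 CPM with RANKL, so in treated DU145 it lay within the latter range.

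RANK rose in DU145 and had a log2 fold change of 1.25 in 22Rv1, -0.21 in C4-2 and 0.19 in C4-2B, and the difference of DU145 from their mean was not significant (0.60 ± 0.31, edgeR adjusted p = 0.174). The same was true of TNFAIP3 (0.84 ± 0.36, adjusted p = 0.0924 by edgeR) and of TNC (0.22 ± 0.42). TNFAIP3 was at most 1.75 CPM in the 15 mono-cultures of the other lines. In mono-culture TNC was at most 0.392 CPM in C4-2 and C4-2B, and in 22Rv1, at 17.2 to 19.7 CPM, its log2 fold change was -0.02. BCL2A1 and GKN2 were at 0 counts in all 15 mono-cultures of the other lines, MMP1 was at most 0.239 CPM and SCEL at most 0.141 CPM, so for these genes the lines could not be compared.

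FGF23, RPL10 and the pseudogene RPS2P5 were the genes called in the same direction in all 4 lines, and they were named after their values were seen. FGF23, a hormone of phosphate balance made by bone, went from 5.64, 5.13 and 4.25 CPM to 32.1 and 33.4 CPM in DU145 (log2 fold change 2.81 ± 0.22, edgeR adjusted p = 4.31e-10). Over all lines it was between 2.85 and 6.53 CPM in the 12 untreated mono-cultures and between 28.9 and 80.4 CPM in the 24 other libraries, of which the 8 with MG63 cells had no RANKL and were at 35.1 to 80.4 CPM. RPL10 was at 26.2 to 234 CPM in those 12 and 2.34 to 14.5 CPM in those 24. Thus both genes separated the deeper untreated mono-cultures from every other library, with or without RANKL.

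**Figure D5:**
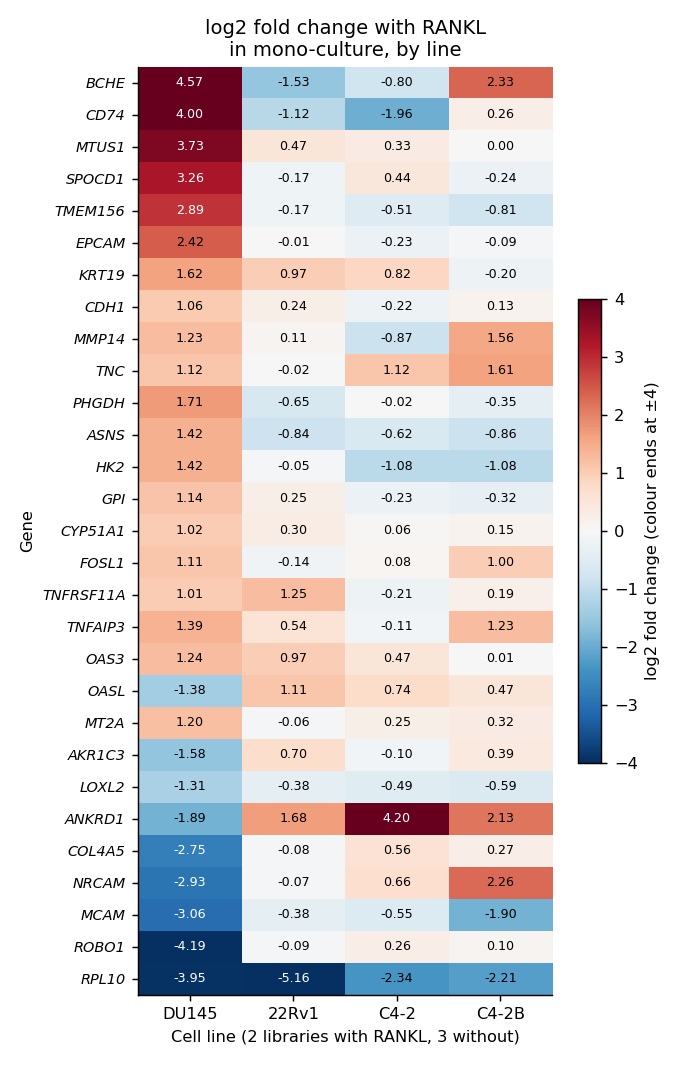
Rows are 29 named genes and columns the 4 cell lines, and each cell gives the log2 fold change with RANKL in mono-culture, with colours that end at 4 on either side. EPCAM, MTUS1, PHGDH, COL4A5 and ROBO1 change in the DU145 column and lie within 1 of 0 in the other columns, whereas RPL10 is lower in all 4.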

How the data were processed

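Poly-A RNA of 36 cultures of 4 prostate cancer lines was sequenced on DNBSEQ-G400 by the authors, who quantified transcripts with kallisto and deposited estimated counts per transcript, without normalization across samples. The submitters' processing notes name kallisto, FastQC and hg19, and the study's methods add a tximport step that the deposited estimated counts do not contain. All 36 value columns were mapped by sample label. Of 161149 lines, 2491 belonged to transcripts listed more than once with identical values and were used once. Counts were summed by symbol to 27852 genes, and transcripts without a symbol stayed in the library totals only. MAP3K14, ISG15 and ACACA of the lists were not analysed here. Some list members are counted but not reported by name. Gene coordinates came from GENCODE 29 on GRCh38, matched by transcript for 95.4% of transcripts, since the deposited table holds no coordinates.

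Sums were rounded and fitted with edgeR 4.0.16 (TMM, robust quasi-likelihood F test) in R 4.3.3, with 1 mean per line and culture over all 36 libraries, which share 1 estimate of the spread. A gene was tested when any of the 5 DU145 libraries compared held 100 or more counts (11866 genes), and p-values were adjusted by Benjamini-Hochberg over all of them. SE are of the fitted log2 fold change. The members and lists were chosen with earlier results of these data known. Genes were named by a rule: the 10 largest called rises and falls with a symbol, at least 3 CPM in every library of the higher group and no overlap; all RANK signalling genes; from each other list up to 4 called members with the largest change, or else the 2 most abundant; and the 3 largest differences from the other lines. Promoter sequences came from RefSeq (GRCh38.p14), matched by symbol for 57 of 78 named genes tested. Alternatives were DESeq2 1.42.0, other scalings and filters, other sets of libraries, thinning, a replicate block and leaving out each library. On simulated counts for DU145 with and without RANKL (11728 genes), 98 of 100 genes changed 4-fold and 92 of 100 changed 2.5-fold were recovered, and 2 unchanged genes were called. The changed genes were drawn from those with a mean above 2 CPM, and no other difference between the cultures was simulated. These rates do not cover genes near the detection limit or differences between culture sets. Python 3.11.15, pandas 2.3.3 and matplotlib 3.10.9 made the tables and figures.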

Additional observations from a re-analysis of the deposited data

Results flagged for a closer look

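The effect of RANKL in DU145 differed from the mean of the other 3 lines, by a test of the difference itself in edgeR, for 182 genes with a larger effect and 250 with a smaller one in DU145. CD74 had the largest such difference among called genes of at least 3 CPM in the higher DU145 group, at 4.94 ± 0.62 on the log2 scale. It was at most 1.05 CPM in the 15 mono-cultures of the other lines, where its fitted log2 fold changes of -1.12 in 22Rv1 and -1.96 in C4-2 make the difference larger than the change in DU145 itself (4.0), so its size could not be compared between lines. BCHE followed at 4.57 ± 0.43, and in 22Rv1 it went the other way, from 6.15 to 7.12 CPM down to 1.65 and 2.86 CPM. Its log2 fold change was 2.33 in C4-2B, where it was at most 0.429 CPM in mono-culture. For ANKRD1 the difference was -4.56 ± 0.31. It fell in DU145 and had log2 fold changes of 1.68, 4.20 and 2.13 in 22Rv1, C4-2 and C4-2B, where its highest level was 3.47 CPM.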

How the results depend on the processing

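Without a filter on low counts, 487 genes were called higher and 416 lower, and without the minimum fold 2075 and 2057. Thinned controls gave 141 lower calls. Of the 464 called genes, 320 were called the same way after thinning and 125 were not tested there. With the MG63 co-cultures of DU145 as control, 234 genes were called higher and 317 lower, 185 of them shared with the mono-culture comparison in direction, and without replicate 2 of these co-cultures, an alternative chosen after seeing the data as was the use of the RAW264.7 libraries, 210 and 111. With that control CXCL1 reversed (-1.64), MT2A lost its change (-0.038, edgeR adjusted p = 0.806), and BCL2A1 (0.36), TNFAIP3 (0.28), OASL (-0.01), H2BC21 (-0.15), TRAF3, MAP3K7 and CYLD lost significance, while TRAF2 (-1.12), TAB1 (-0.52), SQSTM1 (-0.88), TCIRG1 (-0.49) and TYMS (0.33) gained it. In replicates 1 and 2 of the MG63 control, TRAF2 was at 68.2 and 113 CPM, SQSTM1 at 161 and 293 CPM and TCIRG1 at 73.1 and 117 CPM. TAB1 (21.4 and 25.1 CPM) and TYMS (244 and 245 CPM) were closer between these replicates. DESeq2 called 210 and 240 genes, with 2 adjusted p missing. The fit of the 5 libraries called 212 and 269 and the minimum of 3 CPM 290 and 238. Leaving out 1 library gave 188 to 208 higher and 227 to 258 lower calls, and 173 to 179 and 224 to 244 for the difference from the other lines. DU145 libraries with the same number did not deviate together (r = 0.0127 and -0.0032), so the number was not taken to pair cultures. The replicate block gave 208 and 247 calls, 177 and 245 for the difference between lines, and ended the significance of TRAF1, CYLD and CCL20, whereas TCIRG1 became significant. Several genes called near 2-fold fell under it in an alternative: CDH1 (down to 0.95), FN1 (0.97), DUSP6 (0.88), IL11 (0.97), INSIG1 (0.96), CYP51A1 (0.92), TNFRSF11A (0.91), H2AC13 (-0.98), H2BC21 (-0.94), NOG (-0.94) and AKR1C1 (-0.81), with the MG63 control aside.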

Other observations

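Further called genes, picked after their values were seen and thus given as values only, include epithelial genes that went both ways. ST14, the membrane protease matriptase, was at 2.21, 2.19 and 3.24 CPM without RANKL and at 10.7 and 9.96 CPM with it (log2 fold change 2.12). SPINT1, its inhibitor, went from 11.3, 10.0 and 13.8 CPM to 32.3 and 36.3 CPM (1.65). SCNN1A, a chain of the epithelial sodium channel, went from 2.36, 2.55 and 2.74 CPM to 14.0 and 11.9 CPM (2.44), and DMKN, the epidermal protein dermokine, from 105, 107 and 117 CPM to 386 and 395 CPM (1.93). In each case the RAW264.7 co-cultures with RANKL were also above the MG63 co-cultures, with ST14 at 9.01 and 9.83 CPM against 1.13 and 1.71 CPM. The actin crosslinker FLNA rose from 72.3, 68.3 and 67.8 CPM to 212 and 213 CPM (1.71).

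SLPI, a secreted protease inhibitor, went from 29.4, 26.7 and 34.5 CPM to 6.79 and 3.32 CPM (-2.47). Of 9 tested keratins, KRT19 was called higher and KRT81 (-1.04) and KRT86 (-1.80), which are close copies of each other, were called lower, and 4 rose and 2 fell at the adjusted p, against 17.5% and 17.3% of all tested genes.

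Also on the lower side, the proteoglycan SDC2 went from 16.6, 14.2 and 14.9 CPM to 2.13 and 2.58 CPM (-2.61), the semaphorin SEMA3F from 23.1, 22.4 and 22.1 CPM to 4.47 and 4.89 CPM (-2.17), and S100A4, a calcium-binding protein linked to cell motility, from 63.8, 60.4 and 67.6 CPM to 23.7 and 19.7 CPM (-1.46). LIMCH1, a regulator of myosin, fell from 144.6, 153 and 154 CPM to 41.2 and 41.7 CPM (-1.76). Of 6 tested MHC class II genes, CD74 and HLA-DQB1 (1.48) were called higher and 0 lower, against 1.77% and 2.14% of all tested genes. HLA-DQA1 fell at the adjusted p (-0.42), and HLA-DRB1 (0.60), HLA-DMA (-0.005) and HLA-DMB (-1.13) did not pass. The class thus did not move in 1 direction. Of 17 tested genes whose symbols match those of integrin chains, 0 were called higher, 1 lower (ITGB7, -1.20), and 0 rose and 5 fell at the adjusted p, against 2.14% of all tested genes called lower and 17.3% that fell.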
